A study of Mus musculus with 8 samples.

Results

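Latent TGFβ binding proteins hold TGFβ in an inactive store, and their genes were examined in SV-LECs, a line of mouse mesenteric lymphatic endothelial cells immortalized with SV40. The members were taken by symbol from the deposited count table and are *Ltbp1*, *Ltbp2*, *Ltbp3*, *Ltbp4*, *Lrrc32* and *Nrros*, 6 of the 55471 genes in the table, each with a single row. The cells were left untreated or received 10 ng/ml TGFβ1 for 72 h, and poly(A) RNA of 4 samples per group was sequenced. All samples come from the same line, and the study's methods call the 4 samples of a group technical replicates, so that the p-values refer to technical spread only. Total counts per library lay between 18952504 and 26386941. The values below are counts per 1000000 (CPM) of normalized library size, and a count of 3 in a library corresponded to 0.113 to 0.162 CPM, which covers counting error only. The lymphatic label was checked against marker genes. *Flt4*, *Pdpn* and *Kdr* were well above this floor, with mean CPM of 21.6, 342 and 11.6 in untreated cells, whereas *Prox1*, *Lyve1* and *Cdh5* had at most 3 counts and *Pecam1* at most 5 in any library. Of the 6 lymphatic and 7 pan-endothelial markers examined, 4 of each had at most 3 counts in every library, so that most of the defining markers of the labelled cell type were at or near 0. In untreated libraries the lymphatic list summed to 344 to 381 CPM, most of it *Pdpn*, and the pan-endothelial list to 11.5 to 13.1. A list of 8 fibroblast and mural markers summed to 512 to 554 CPM there, most of it *Dcn* and *Pdgfra*.

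TGFβ is made as a precursor that furin cleaves. The propeptide stays on the growth factor and keeps it latent, and a partner protein then decides where this latent complex is kept. LTBP1, LTBP3 and LTBP4 bind the propeptide covalently and carry the complex into the extracellular matrix, where fibrillin and fibronectin fibres hold it. LTBP2 has the same domain build and binds fibrillin but is known for not binding latent TGFβ. LRRC32, also called GARP, is a membrane protein with leucine-rich repeats that displays latent TGFβ on the surface of regulatory T cells, platelets and some endothelial cells. NRROS, also called LRRC33, does so on macrophages and microglia. Integrins, proteases and thrombospondin 1 release the active factor.

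After TGFβ1 the LTBP genes moved apart. *Ltbp2* rose 6.19-fold and *Ltbp1* 1.91-fold, *Ltbp4* fell to 0.439 of its untreated level, and the cell surface tether *Lrrc32* rose 5.92-fold. *Ltbp3* rose 1.20-fold with overlapping groups, and *Nrros* was at or near the detection floor in both groups. Of the 6 genes, 5 passed the filter on low counts, each with at least 131 counts in every library of both groups. Of these, 4 were called higher and 1 lower at a false discovery rate (FDR) under 0.05 by edgeR's likelihood ratio test, and in 4 of the 5 the groups did not overlap. TGFβ1 moved most of the transcriptome: 37.6% of the 13818 genes tested were called higher, 38.0% were called lower and in 69.8% the groups did not overlap, so that a call alone sets no member apart. The median absolute log2 fold change over all genes tested was 0.386. In bulk RNA a change in the number of cells that express a gene and a change in RNA per cell cannot be told apart.

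**Figure D1:**
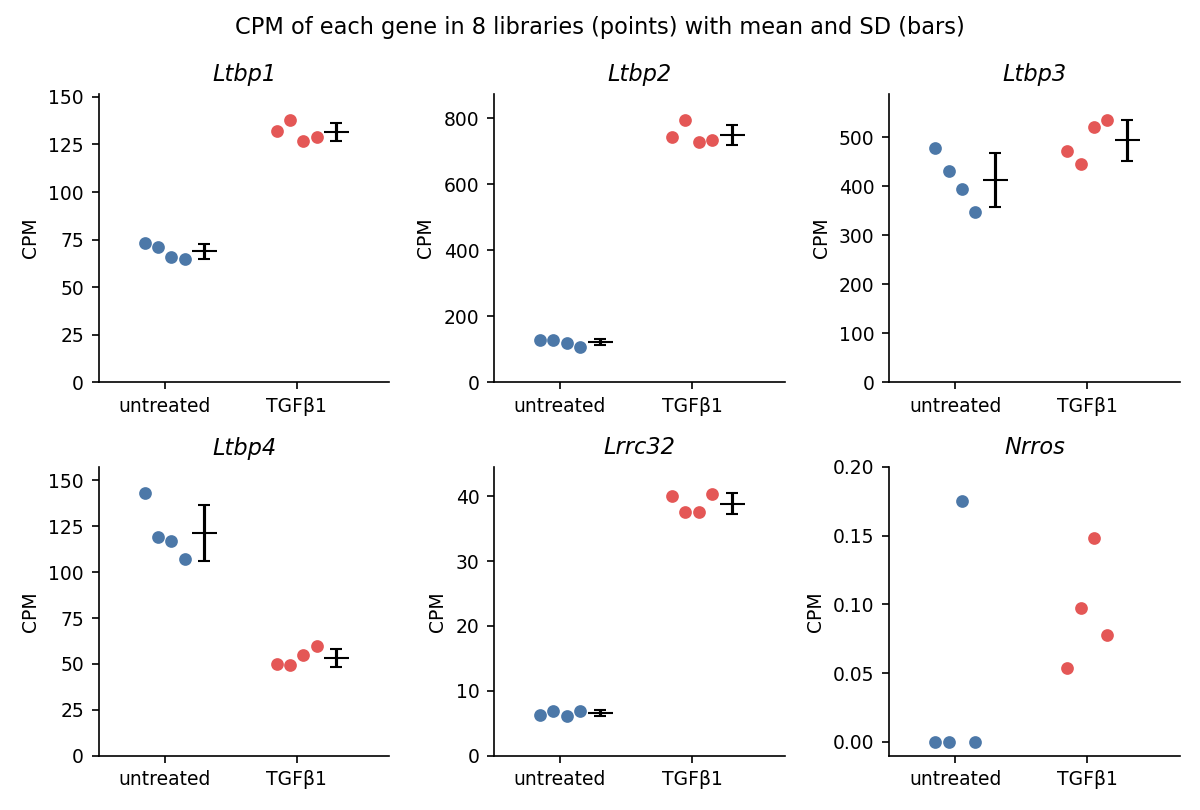
Each panel gives CPM of a gene (vertical axis, from 0) in the 4 untreated and the 4 TGFβ1-treated libraries, with 1 point per library and, except for *Nrros*, the mean and SD as bars. The groups are apart for *Ltbp1*, *Ltbp2*, *Ltbp4* and *Lrrc32* and overlap for *Ltbp3* and *Nrros*.

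The promoters of the member that rose most and of the member that fell are shown here, with that of *Ltbp1* between them, to set out the sequence before their starts. RefSeq sequence on GRCm38.p6 was available for 5 of the 6 genes, in 8 windows of 250 bases before a start, and *Lrrc32* was not matched. Bases that lie in an annotated exon of the same strand are left out. Matches to CAGAC, a binding motif of SMAD3 and SMAD4, and to GGCGC, a second motif bound by SMADs, are in capitals on either strand. The lines give *Ltbp2* at chr12:84876533-84876741 (minus strand), the outer start of *Ltbp1* at chr17:75005279-75005528 (plus strand), and the outer and an inner start of *Ltbp4* at chr7:27337693-27337862 and chr7:27333664-27333913 (minus strand).
Ltbp2: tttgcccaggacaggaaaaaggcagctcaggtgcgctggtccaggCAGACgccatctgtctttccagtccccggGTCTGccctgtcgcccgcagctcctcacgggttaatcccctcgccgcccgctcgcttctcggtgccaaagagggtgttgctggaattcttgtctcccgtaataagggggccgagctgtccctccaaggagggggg
Ltbp1 outer: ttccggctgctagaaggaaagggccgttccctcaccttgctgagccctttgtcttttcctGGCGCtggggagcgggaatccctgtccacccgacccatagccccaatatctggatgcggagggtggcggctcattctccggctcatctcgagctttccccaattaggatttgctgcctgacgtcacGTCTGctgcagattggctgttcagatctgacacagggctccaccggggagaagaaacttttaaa
Ltbp4 outer: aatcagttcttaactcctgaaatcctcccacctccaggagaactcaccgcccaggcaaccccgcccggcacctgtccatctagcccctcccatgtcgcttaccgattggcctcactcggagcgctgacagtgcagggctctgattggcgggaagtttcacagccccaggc
Ltbp4 inner: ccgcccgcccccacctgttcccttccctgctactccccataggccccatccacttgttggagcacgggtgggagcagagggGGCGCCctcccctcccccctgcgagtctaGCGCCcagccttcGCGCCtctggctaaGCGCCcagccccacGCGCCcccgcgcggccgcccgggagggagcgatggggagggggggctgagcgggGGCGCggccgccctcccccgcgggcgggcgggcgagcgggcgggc
CAGAC or its complement GTCTG was found 2 times before *Ltbp2*, 1 time before the outer and 2 times before the inner start of *Ltbp1*, and 1 time before *Ltbp3* and *Nrros*. No window of *Ltbp4* held it. It occurs in 42.2% of all 32851 promoter windows of the same length. GGCGC or its complement GCGCC was found 7 times in the inner *Ltbp4* window shown, counting the palindrome GGCGCC on both strands, and 1 time before the outer start of *Ltbp1*, against 32.0% of all windows with at least 1 match. That *Ltbp4* window has 79.2% GC, against a median of 52.4% over all promoters, and the share of windows was not matched for GC. The AP-1 motif TGANTCA was found in none of the 8 windows and in 6.75% of all windows. These matches describe the letters of the windows only.

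*Ltbp2* (ENSMUSG00000002020) lies on the minus strand of chromosome 12 of GRCm38, from 84783212 to 84876532. Untreated replicates 1 to 4 had 129, 127, 120 and 108 CPM, and TGFβ1-treated replicates 1 to 4 had 743, 795, 728 and 733 CPM. Every treated library was thus several times above every untreated one. Mean CPM was 121 ± 9.33 before and 750 ± 30.9 after treatment (SD, n = 4 libraries in each group), a ratio of 6.19 and a log2 fold change of 2.63 (standard error 0.0549). The FDR from edgeR's likelihood ratio test was below the smallest number the software holds, with a likelihood ratio of 2081, and edgeR's quasi-likelihood test gave an FDR of 4.45e-14. By log2 fold change *Ltbp2* ranked 297 from the top of the 13818 genes. Its exons share 764 bases with those of D030025P21Rik on the opposite strand, 9.34% of its exon length. That gene had 12 to 86 counts per library against 2139 to 18891 for *Ltbp2*, and itself rose by a log2 fold change of 1.68. Whether strand was used in counting is not given in the sources used here.

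*Ltbp1* (ENSMUSG00000001870), the founding binder of latent TGFβ, lies on the plus strand of chromosome 17 from 75005568 to 75392512. It had 73.1, 70.9, 66.0 and 65.0 CPM in untreated replicates 1 to 4. In treated replicates 1 to 4 it had 132, 138, 127 and 129 CPM, so that the groups were well apart. The mean rose from 68.8 ± 3.87 to 131 ± 4.79 CPM (SD, n = 4), a log2 fold change of 0.93 with a standard error of 0.0508. The FDR was 1.64e-73 from edgeR's likelihood ratio test and 1.56e-10 from its quasi-likelihood test. *Ltbp1* is read from an outer and an inner start that give a long and a short protein, and counts per gene do not separate them.

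*Ltbp4* (ENSMUSG00000040488) lies on the minus strand of chromosome 7 from 27305136 to 27337692, and its protein also takes part in elastic fibre assembly. It was the member that fell. Untreated replicates 1 to 4 had 143, 119, 117 and 107 CPM, and treated replicates had 50.0, 49.2, 54.7 and 59.5 CPM. The lowest untreated library was still well above the highest treated one. The mean went from 121 ± 15.2 to 53.3 ± 4.76 CPM (SD, n = 4), a ratio of 0.439 and a log2 fold change of -1.18 (standard error 0.0843). The FDR was 4.59e-43 from edgeR's likelihood ratio test and 7.47e-09 from its quasi-likelihood test. Counted from the lowest log2 fold change, *Ltbp4* ranked 642 of the 13818 genes. *Ltbp4* and *Ltbp2* stood at the same mean CPM in untreated cells and were on opposite sides of it after TGFβ1. CPM takes no account of gene length, and per kilobase of exon *Ltbp4* lay above *Ltbp2* in untreated cells.

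*Lrrc32* (ENSMUSG00000090958), which encodes GARP, lies on the plus strand of chromosome 7 from 98489283 to 98502181. Untreated replicates 1 to 4 had 6.31, 6.91, 6.11 and 6.95 CPM, from 131 to 184 counts. Treated replicates 1 to 4 had 40.1, 37.5, 37.5 and 40.4 CPM, from 742 to 1040 counts, far above all untreated libraries. The mean rose from 6.57 ± 0.422 to 38.9 ± 1.60 CPM (SD, n = 4), a ratio of 5.92 and a log2 fold change of 2.56 (standard error 0.0785). The FDR was 1.67e-267 from edgeR's likelihood ratio test and 1.76e-13 from its quasi-likelihood test, and the gene ranked 315 from the top by log2 fold change. Its interval of log2 fold change, 2.41 to 2.72, overlapped that of *Ltbp2*, 2.52 to 2.74. All 5 regulatory T cell markers examined, *Foxp3* among them, had at most 3 counts in every library. Of 5 platelet markers, *Pf4* and *Gp9* were at 0 in all libraries, whereas *Itga2b* went from 6.96 to 14.7 CPM. The summed CPM of the platelet list was 5.72 to 7.61 in untreated and 14.5 to 15.3 in treated libraries, nearly all of it *Itga2b*, and its part in the result was not tested.

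*Nrros* (ENSMUSG00000052384) lies on the minus strand of chromosome 16 from 32142785 to 32165594. It had 0, 0, 4 and 0 counts in untreated replicates 1 to 4 and 1, 2, 3 and 2 counts in treated replicates, and did not pass the filter. Pooled, this was 4 counts or 0.0444 CPM in untreated cells (exact 95% Poisson interval 0.0121 to 0.114) and 8 counts or 0.0940 CPM after TGFβ1 (0.0406 to 0.185). The intervals, which cover counting error only, overlap, and no difference was detectable at this depth. Of 7 macrophage markers, *Adgre1* and *Tyrobp* were at 0 in all libraries and *Ptprc* had at most 1 count. *Cd68* and *Csf1r* were the markers of that list that passed the filter, and both were called higher, as were 37.6% of all genes tested. The summed CPM of the macrophage list was 5.97 to 8.34 in untreated and 16.2 to 18.6 in treated libraries. Most of it was *Cd68*, with mean CPM of 6.96 and 15.9, whereas *Csf1r* had 0.278 and 1.38.

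*Ltbp3* (ENSMUSG00000024940) lies on the plus strand of chromosome 19 from 5740904 to 5758532, and its protein binds the propeptide of TGFβ as LTBP1 does. Untreated replicates 1 to 4 had 479, 431, 394 and 347 CPM. Treated replicates had 473, 446, 521 and 536 CPM. The highest untreated library lay within the range of the treated ones, and the other untreated libraries lay below it. The mean went from 413 ± 55.9 to 494 ± 41.9 CPM (SD, n = 4), a log2 fold change of 0.26 with a standard error of 0.0855. It was called higher by edgeR's likelihood ratio test (FDR = 0.00369), by the quasi-likelihood test (FDR = 0.0101) and by DESeq2 (adjusted p = 0.0253). The exact two-sided permutation test of mean CPM gave p = 0.0857 for *Ltbp3*, against p = 0.0286 for *Ltbp1*, *Ltbp2*, *Ltbp4* and *Lrrc32*, the smallest that 4 libraries against 4 allow. For *Nrros* it gave p = 0.314 by the same exact test.

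The spread of *Ltbp3* and *Ltbp4* moved with a property of the libraries. In each library the deviation of a gene from its group mean was set against the GC content of its longest transcript over 10996 genes, which gives a GC slope per library. In untreated replicates 1 to 4 the slope was 0.065, 0.007, -0.012 and -0.060 on the log2 scale per 10 percentage points of GC. In treated replicates 1 to 4 it was -0.025, -0.047, 0.029 and 0.043. Within each group the libraries rank by *Ltbp3* CPM and by *Ltbp4* CPM exactly as they rank by this slope. The slope comes from these same libraries, and the share of all genes that rank this way was not counted. The longest transcripts of *Ltbp3* and *Ltbp4* have 58.3% and 62.2% GC, above 92.0% and 98.8% of the genes used. Their coefficients of variation in untreated libraries were 13.5% and 12.6%, against a median of 4.98% over genes with a mean log2 CPM above 2. *Ltbp1* and *Ltbp2*, with 52.7% and 58.5% GC, followed the slope in untreated but not in treated libraries. Among the treated libraries both were highest in replicate 2, at 138 and 795 CPM, where the slope was lowest. *Lrrc32*, with the same GC content as *Ltbp3*, did not follow the slope and had a coefficient of variation of 6.42%.

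**Figure D2:**
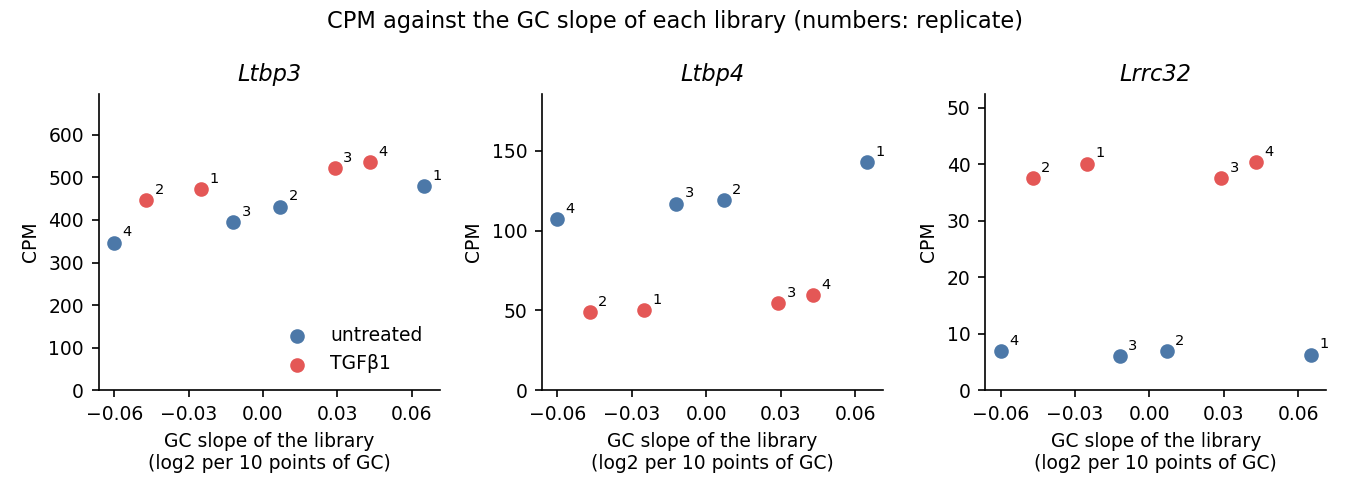
CPM of *Ltbp3*, *Ltbp4* and *Lrrc32* (vertical axes, from 0) against the GC slope of each library (horizontal axis, log2 per 10 percentage points of GC), with 1 point per library, numbered by replicate, blue for untreated and red for TGFβ1. *Ltbp3* and *Ltbp4* are higher in libraries with a higher slope within each group, and *Lrrc32* is not.

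Levels between genes were compared per kilobase of exon (RPKM). In untreated cells the order was *Ltbp3* at 45.5 ± 6.17, *Ltbp4* at 18.8 ± 2.36, *Ltbp2* at 14.8 ± 1.14, *Ltbp1* at 6.43 ± 0.362, *Lrrc32* at 1.40 ± 0.0899 and *Nrros* at 0.0105 ± 0.0209 RPKM (SD, n = 4 libraries). No neighbours in this order overlapped between libraries, but *Ltbp4* and *Ltbp2* were close, with a lowest library of 16.6 and a highest of 15.8 RPKM. After TGFβ1 *Ltbp2* led at 91.6 ± 3.78 RPKM, ahead of *Ltbp3* at 54.5 ± 4.62 and *Ltbp1* at 12.3 ± 0.448. *Lrrc32* at 8.29 ± 0.341 and *Ltbp4* at 8.25 ± 0.736 RPKM did not differ beyond the spread of their libraries, and *Nrros* stayed last at 0.0225 ± 0.00952. These levels depend on the length used. With the longest transcript in place of all exon bases, *Ltbp4* at 9.90 RPKM lay above *Lrrc32* at 8.49 in treated cells without overlap, untreated *Ltbp3* was at 72.1 RPKM, and *Ltbp1* was at 10.3 RPKM in untreated and 19.7 in treated cells. The rest of the order was the same with either length. Among all genes tested, *Ltbp2* went from the 72.0th to the 97.0th percentile of RPKM and *Lrrc32* from the 22.3rd to the 57.5th. *Ltbp4* went from the 77.8th to the 57.4th percentile, and *Ltbp3* was above the 92nd in both groups.

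**Figure D3:**
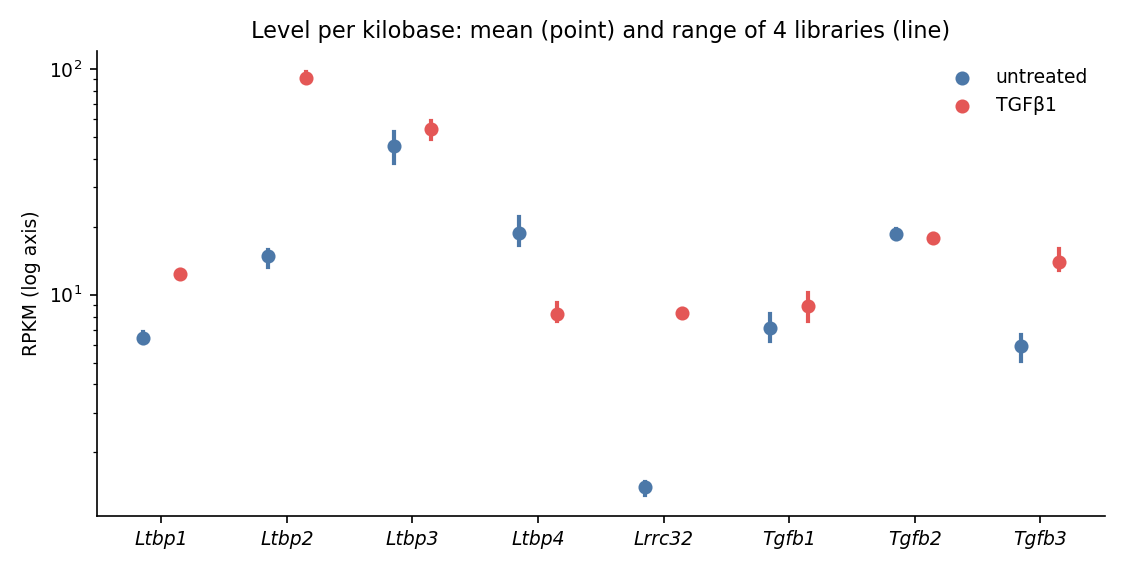
RPKM (vertical log axis) of the 5 members above the detection floor and of the 3 TGFβ ligand genes, with the mean of 4 libraries as a point and their range as a line, for untreated and TGFβ1-treated cells. *Ltbp3* leads before and *Ltbp2* after treatment.

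The makeup of the LTBP transcripts therefore changed. *Ltbp3* held 53.1% ± 1.19 of the summed RPKM of *Ltbp1* to *Ltbp4* in untreated cells and 32.7% ± 2.48 after TGFβ1 (SD, n = 4), without overlap between groups. *Ltbp2* went from 17.4% ± 0.789 to 55.0% ± 2.52 and *Ltbp4* from 21.9% ± 0.782 to 4.95% ± 0.376. The share of *Ltbp1* was 7.56% ± 0.488 and 7.37% ± 0.317, with overlapping libraries. The sum of the LTBP genes went from 85.5 ± 9.83 to 167 ± 2.82 RPKM. Without *Ltbp2*, the sum of the binders of latent TGFβ was 70.7 ± 8.76 and 75.0 ± 4.93 RPKM, with library ranges of 60.9 to 81.8 and 69.7 to 80.4 that overlap. This sum gives each transcript the same weight and says nothing of how well each protein binds. The growth in LTBP transcripts thus lay mainly in *Ltbp2*, while within the binders *Ltbp1* and *Ltbp4* moved in opposite directions. The ratio of *Ltbp1* to *Ltbp4* by RPKM went from 0.345 ± 0.0262 to 1.50 ± 0.175.

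**Figure D4:**
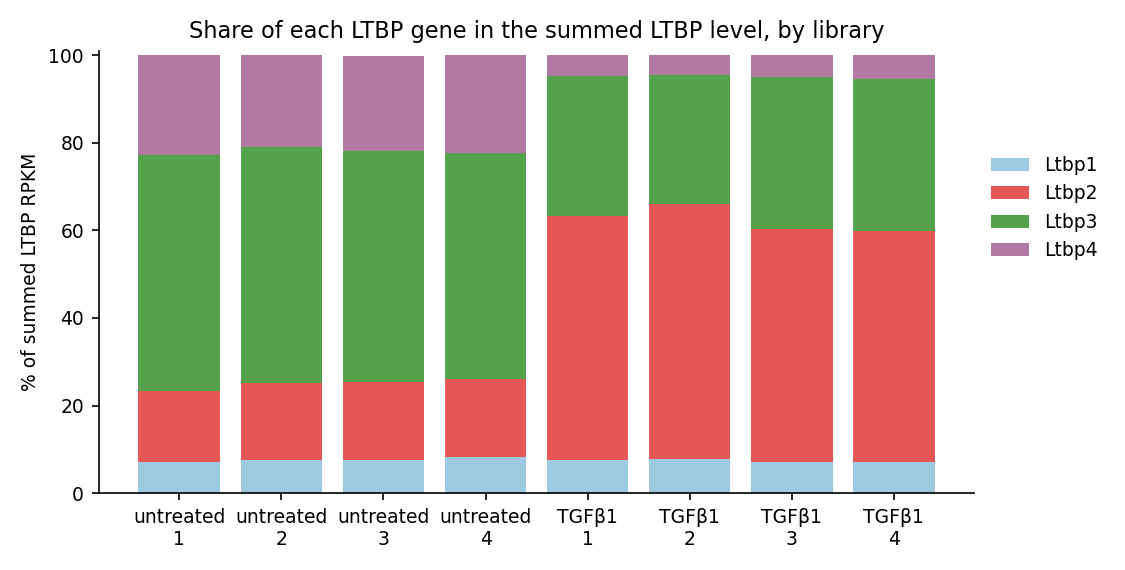
Share of each LTBP gene in the summed RPKM of *Ltbp1* to *Ltbp4* (vertical axis, percent) in each of the 8 libraries, as stacked bars. *Ltbp2* takes 52.7% to 58.2% in treated libraries and 16.2% to 17.9% in untreated ones.

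The remaining genes of latent TGFβ storage and release were taken from a list of 29 genes, of which 27 passed the filter. In this list 19 were called higher, 5 lower and 3 neither by edgeR's likelihood ratio test, beside 37.6% and 38.0% over all genes. Their median log2 fold change was 0.34, against -0.0064 over all genes tested. The list was chosen with earlier results of these data known, so that it is not independent of these values.

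Among the ligands, *Tgfb3* rose from 20.0 ± 2.18 to 47.0 ± 4.78 CPM (SD, n = 4), a log2 fold change of 1.23. *Tgfb1* was called higher with a log2 fold change of 0.31 and overlapping groups (FDR = 0.00287 from edgeR's likelihood ratio test). *Tgfb2* was not called (FDR = 0.359 from the same test), with a log2 fold change of -0.05. Per kilobase *Tgfb2* was the highest ligand in both groups, at 18.5 ± 0.821 and 17.9 ± 0.709 RPKM. The summed RPKM of *Ltbp1*, *Ltbp3* and *Ltbp4* stood at 2.24 ± 0.230 times that of the 3 ligands in untreated and at 1.84 ± 0.134 times in treated libraries, with ranges of 1.99 to 2.55 and 1.65 to 1.95. The same ratio for *Lrrc32* was 0.0444 ± 0.00292 and 0.204 ± 0.0142. With *Ltbp2* included, the ratio of all 4 LTBP genes to the ligands went the other way, from 2.71 ± 0.254 to 4.10 ± 0.110. Relative to the ligand transcripts, *Lrrc32* was several times higher after treatment, while the direction for the LTBP genes depended on whether *Ltbp2* was counted. These ratios weigh all transcripts alike, and which LTBP binds which ligand, and how well, was not examined.

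Of the processing genes, *Furin*, the convertase that cleaves the TGFβ precursor, rose by a log2 fold change of 0.34. *Bmp1*, a protease that cleaves LTBP1 and procollagens, rose from 232 ± 9.10 to 898 ± 19.0 CPM (log2 fold change 1.95). *Tgm2*, a transglutaminase that crosslinks LTBP1 to the matrix, fell from 66.9 ± 7.01 to 34.7 ± 2.20 CPM (log2 fold change -0.95). Of 10 matrix anchors, 5 were called higher, 3 lower and 2 neither. Over all genes tested 37.6% were called higher and 38.0% lower, so that these counts do not set the anchors apart. *Fbn1*, the fibrillin to which LTBPs attach, rose by 0.85 and fibronectin (*Fn1*) by 0.64 on the log2 scale, while *Fbn2*, the fibrillin of developing tissue, had a log2 fold change of -2.20. *Fbln5*, an elastic fibre protein, had a log2 fold change of -0.73 and moved the way of *Ltbp4*. *Efemp2* and *Emilin1*, with 0.23 and 0.28, rose less, and the groups overlapped for *Emilin1*. *Mfap2*, a microfibril protein, had a log2 fold change of -0.44, and *Eln* and *Mfap5* were not called (0.04 and 0.18). *Adamtsl2*, whose protein binds LTBP1 and fibrillin, had no more than 1 count in any untreated library against 13 to 24 with TGFβ1, and was at least 5.92-fold higher against a floor of 3 counts per library.

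The activators were mostly higher, beside 37.6% called higher and 38.0% called lower over all genes tested. All 6 tested genes of the group of proteases and thrombospondin 1 were called higher, from *Mmp2* with a log2 fold change of 0.29 to *Mmp9* with 5.28. *Thbs1* rose from 402 ± 25.7 to 2108 ± 90.8 CPM (SD, n = 4). *Plg*, the source of plasmin, was at 0 counts in all libraries. Of the integrin genes, *Itgav*, *Itgb1*, *Itgb3* and *Itgb5* were called higher, with log2 fold changes of 0.58, 0.47, 2.10 and 1.15. *Itgb8*, whose product pairs with the αV chain and frees TGFβ from the GARP complex, was the exception and fell from 46.2 ± 2.32 to 5.91 ± 1.43 CPM (log2 fold change -2.97). *Itgb8* and *Lrrc32* thus moved in opposite directions in the same libraries. *Itgb6* was at 0 counts in untreated libraries and was not tested.

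**Figure D5:**
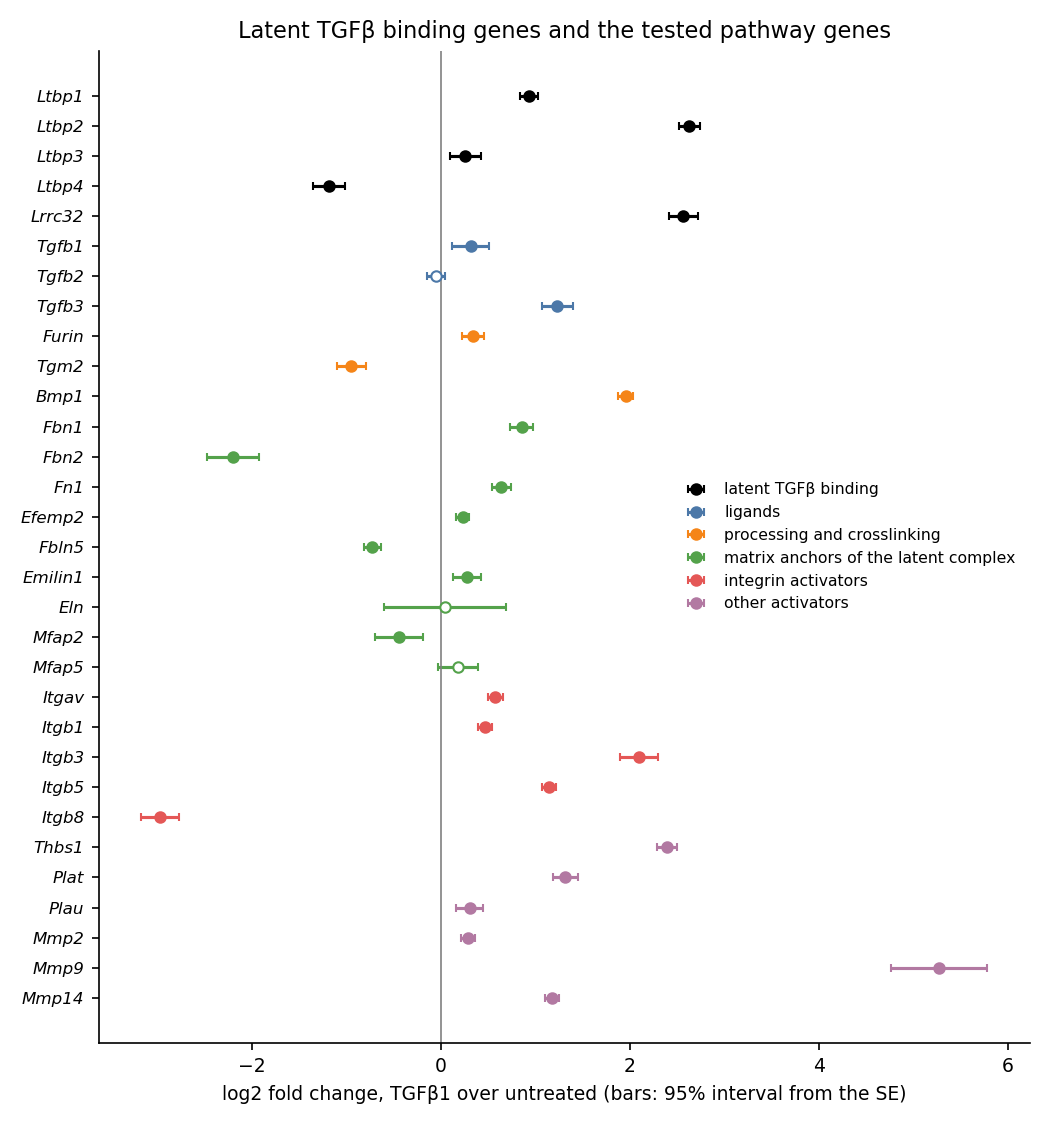
Log2 fold change of TGFβ1-treated over untreated cells (horizontal axis) with the 95% interval from the standard error for the 5 tested members and the tested pathway genes, coloured by role, with open circles for genes not called. *Adamtsl2* is not drawn because its untreated libraries are at the floor. Of the called genes, *Ltbp4*, *Tgm2*, *Fbn2*, *Fbln5*, *Mfap2* and *Itgb8* lie below 0.

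Markers of other cell types moved too. The fibroblast and mural list of 8 genes summed to 512 to 554 CPM in untreated and 229 to 259 CPM in treated libraries. The lower sum lay mainly in *Dcn*, from 312 to 83.0 mean CPM, and *Pdgfra*, from 160 to 57.8. These were the 2 genes called lower, and 3 were called higher, *Pdgfrb*, *Cspg4* and *Des*. Over all genes tested 37.6% were called higher and 38.0% lower. The epithelial list of 4 genes summed to at most 1.14 CPM in untreated and 4.11 CPM in treated libraries. Their part in the results above was not tested.

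The genes nearest in pattern to each tested member were sought by the root mean square difference in log2 CPM over the 8 libraries, each gene centred on its own mean. Nearest to *Ltbp2* were Gm2115 (0.0766), *Jag1*, a Notch ligand (0.0857), and *Ctla2a* (0.103). Nearest to *Lrrc32* were *Baiap2* (0.0949), *Mcam*, the endothelial adhesion molecule CD146 (0.0998), and *Dcxr* (0.111). *Ltbp2* was itself the 7th nearest gene to *Lrrc32*, with a difference of 0.128, and no other pair of members was nearer than 0.358. Nearest to *Ltbp4* were *Klc2* (0.0450), *Pold2* (0.0686) and 2410006H16Rik (0.0691). For *Ltbp1* they were *Ccdc137* (0.0405), *Apbb2* (0.0445) and *Tchp* (0.0449), and for *Ltbp3* *Dus3l* (0.0344), *Tmem259* (0.0440) and *Aup1* (0.0457). With 8 libraries in 2 groups these differences mainly order genes by the size of their change.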

How the data were processed

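Poly(A) RNA of 8 SV-LEC samples, 4 untreated and 4 treated with TGFβ1, was sequenced from stranded libraries as single-end reads of 75 bases. After mapping to GRCm38 the authors deposited a table of raw counts for each gene, whole numbers without normalization. The submitters' processing notes name bcl2fastq 2.20.0.422, STAR 2.7.3a and featureCounts 1.5.1. The annotation release and the strand setting are not given in the sources used here.

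Groups came from the sample labels. Genes were filtered with filterByExpr, normalized by TMM and compared with the likelihood ratio test of edgeR 4.0.16 in R 4.3.3, the test the study names, with Benjamini-Hochberg FDRs over all 13818 genes tested and a threshold of 0.05. Fold changes carry a prior count of 0.125. Intervals are the estimate ± 1.96 standard errors. RPKM used union exon lengths of GENCODE M21, which matched 55230 of 55471 genes. Permutation tests used scipy 1.17.1. Counts varied beyond sampling noise among the libraries within a group (chi-square per degree of freedom 2.37 to 7.84). The fit was also run on simulated counts in which far fewer genes changed than in these data. Scaling under so broad a change was therefore not tested by it.

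The members and lists were chosen with earlier results of these data known. Named genes are the 6 members, the fixed pathway list, the 3 genes nearest in pattern to each tested member, and markers where a result turns on them. The alternatives were edgeR's quasi-likelihood test, DESeq2 1.42.0, other scalings, filters and prior counts, a replicate block, each library left out, other lengths and, chosen after seeing the data, a GC slope covariate. Protein sequences were not used here. Some results are not reported here.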

Additional observations from a re-analysis of the deposited data

Results flagged for a closer look

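*Nrros* in untreated cells stood out because of 1 library far from the others. Untreated replicate 3 had 0.175 CPM, from 4 counts, and the other untreated libraries had 0. For normally distributed values chance alone flags about 1 in 20 groups by this criterion, and 12 groups were examined. That rate does not hold here, since any group with counts in only 1 library is flagged. The value rests on too few reads to separate it from counting error.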

How the results depend on the processing

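The 5 tested members kept direction and call under all alternatives to the fit. Over the alternatives with 8 libraries the log2 fold change was 0.865 to 0.946 for *Ltbp1*, 2.562 to 2.643 for *Ltbp2*, 0.192 to 0.273 for *Ltbp3*, -1.252 to -1.171 for *Ltbp4* and 2.496 to 2.577 for *Lrrc32*. With each library left out in turn it was 0.905 to 0.956, 2.578 to 2.655, 0.184 to 0.333, -1.242 to -1.102 and 2.528 to 2.590 in the same order. *Ltbp3* came nearest to the threshold, with a largest FDR of 0.0318 from edgeR's likelihood ratio test under scaling by total counts. Without a filter the fit of *Nrros* gave 0.963 on the log2 scale, a value that depends on the prior count, and edgeR's likelihood ratio test an FDR of 0.364. The labels do not say whether same-numbered samples were paired. Deviations of same-numbered libraries correlated at -0.193 to -0.034 over genes, which cannot settle this with 4 libraries per group. With the replicate block *Ltbp3* was at 0.265 on the log2 scale (edgeR likelihood ratio FDR = 0.0119), and the block left 4 members higher and 1 lower, and changed no other call of a member. With the longest transcript as length, mean RPKM in untreated and treated cells was 10.3 and 19.7 for *Ltbp1*, 17.9 and 111 for *Ltbp2*, 72.1 and 86.3 for *Ltbp3* and 22.5 and 9.90 for *Ltbp4*, and *Ltbp4* then lay above *Lrrc32* (8.49) in treated cells without overlap. The shares became 8.44% and 8.69% for *Ltbp1*, 14.6% and 48.9% for *Ltbp2*, 58.6% and 38.0% for *Ltbp3* and 18.3% and 4.36% for *Ltbp4*. Isoforms, overlapping antisense reads and levels under 3 counts are not resolved by these counts.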

Other observations

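With the GC slope of each library, centred within its group, added to the model as a covariate, a choice made after seeing the data, the log2 fold changes of *Ltbp3* and *Ltbp4* were 0.264 and -1.181. The standard error of *Ltbp3* went from 0.0855 to 0.0351 and that of *Ltbp4* from 0.0843 to 0.0406, while that of *Lrrc32* went from 0.0785 to 0.0746. The FDR of *Ltbp3* from edgeR's likelihood ratio test was 1.23e-13 in this fit. Centring keeps the covariate from taking up the difference between groups, and the slopes were estimated from the same libraries.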
